A study of Mus musculus with 30 samples.

Results

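The step from day 3 to day 4 of mammary involution in wild type mice was examined by comparing the 3 arrays labelled wild type involution day 4 with the 3 arrays labelled wild type involution day 3, 6 of the 30 arrays in the series. These arrays were chosen by their sample titles alone, and no measured value entered the choice. The study measured RNA of whole mammary glands from wild type and E2F3 +/- mice, which carry a single working copy of the cell cycle transcription factor E2F3. Glands were taken at lactation, counted as involution day 0, and on involution days 1, 2, 3 and 4, with 3 mice in each of the 10 groups and a separate mouse on each array. Gland RNA was labelled with Cy5 and hybridised with Cy3-labelled RNA of a mouse reference library to 2-colour arrays of 6267 spotted oligonucleotide probes. The labels give no strain, age or litter size, and name no agent for any group. A level below is the log2 ratio of gland to reference, centred on the median of its array. The direction of the ratio is likely, not stated. A difference is the mean day 4 level minus the mean day 3 level on the log2 scale, and errors after ± are standard errors from limma with n = 3 and 3 arrays.

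Involution is the regression of the milk-producing gland after suckling stops. In mice its first phase is reversible, with milk still in the alveoli and Stat3 signalling driving an acute phase and lysosomal programme in the epithelium. The later phase is marked by matrix breakdown, collapse of the alveoli, clearance of dead cells by macrophages and return of lipid-filled adipocytes to the fat pad. Days 3 and 4 fall around this later phase.

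Markers of the labelled tissue were measured on the 6 arrays. The milk protein genes Csn3 and Lalba, the luminal keratins Krt8 and Krt18, the adipocyte genes Adipoq, Plin1 and Fabp4, the fibroblast genes Dcn, Lum and Pdgfra, and the macrophage genes Cd68, Lyz2, Tyrobp and Mpeg1 each had a value on all 6. Skeletal muscle genes did too: Myh2, a fast myosin heavy chain, stood at 7.52, 7.32 and 6.19 on day 3 and at 8.61, 7.92 and 9.76 on day 4. No probe is named for the defining markers of neutrophils, T cells, B cells or red blood cells. In RNA of a whole gland, fewer cells of a type and less RNA per cell cannot be told apart. The day 3 arrays correlated with each other at r = 0.954 to 0.961 over the tested probes and the day 4 arrays at r = 0.853 to 0.921. Pairs of a day 3 and a day 4 array ran from r = 0.845 to 0.930. The 3 arrays least like their own group were outside this comparison: E2F3 +/- day 4 replicate 3 (mean r = 0.763), E2F3 +/- day 3 replicate 1 (0.838) and wild type day 2 replicate 3 (0.838). They entered the wild type step through the estimate of spread, which all 10 groups shared, and through the choice of probes, which had to be measured in every group. They also enter the day 2 levels and the E2F3 +/- results directly. Counts for the day 3 to day 4 steps and the test between the genotypes are given with and without them. Results that use day 2 are given only with them.

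At the level of probes, no difference passed a Benjamini-Hochberg adjusted p of 0.05 in limma: 0 of 5010 probes were called, a background of 0%, and the smallest adjusted p was 0.0546. At an unadjusted p under 0.05 there were 695 probes (13.9%), 387 of them higher (7.72%) and 308 lower (6.15%) on day 4. With the probes of a gene averaged, 1 of 2901 genes was called (0.0345%). That gene was Cry1. With the 3 arrays named above left out, an alternative chosen after seeing the data, 215 of 4711 probes were called higher (4.56%) and 107 lower (2.27%). Over genes that fit called 96 of 2762 higher (3.48%) and 38 lower (1.38%). Leaving out arrays outside the comparison does not change the difference of a probe, only its error and the filter. The 3 arrays were picked as least like their groups, so dropping them tends to lower the estimate of spread by construction. Calls of that fit are therefore not separate support. Fitted to the 6 compared arrays alone, limma called 0 probes and 0 genes.

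**Figure D1:**
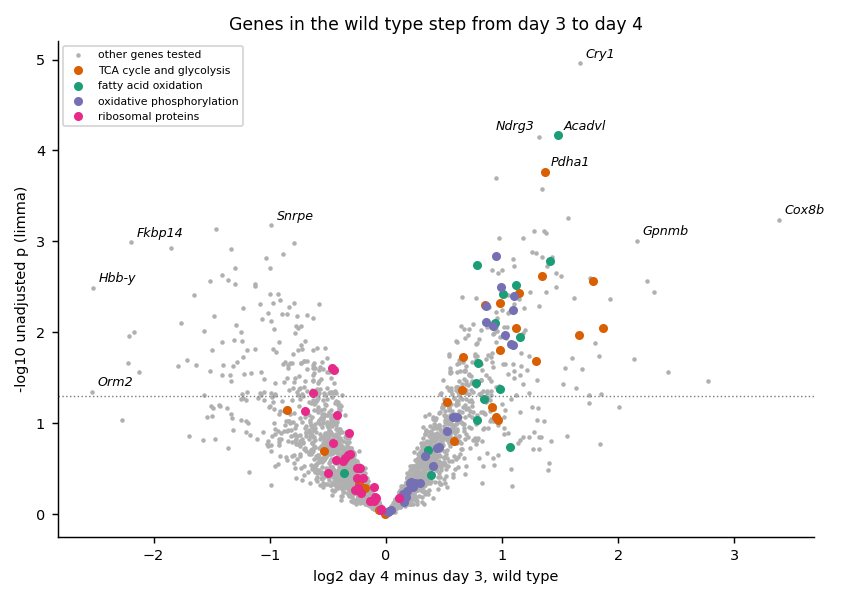
Difference between wild type day 4 and day 3 (horizontal axis, log2) against significance (vertical axis, -log10 of the unadjusted limma value) for each of 2901 genes, with members of 4 gene lists coloured and a dotted line at the unadjusted threshold. Cry1 lies highest, and the members of the TCA cycle and glycolysis, fatty acid oxidation and oxidative phosphorylation lists past the dotted line all lie on the side of day 4.

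The typical difference was small beside the precision. The median size of the difference over probes was 0.32 (log2), and the median half-width of its 95% interval was 0.67, a 1.59-fold difference. Between wild type days 2 and 3 the median size was 0.54, and between days 1 and 2 it was 0.79. The same fit called 828 of 5010 probes between days 2 and 3 (16.5%) and 2524 between days 1 and 2 (50.4%). These neighbouring steps share arrays with each other and with the step described here, so their counts are given side by side only.

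Cry1 was higher on day 4. It encodes cryptochrome 1, a repressor in the negative limb of the circadian clock that blocks transcription by CLOCK and BMAL1. Its levels were -1.58, -1.92 and -0.91 on the 3 day 3 arrays and 0.33, 0.30 and -0.02 on the 3 day 4 arrays. All day 4 arrays lay above all day 3 arrays. Cry1 rose by 1.67 ± 0.30 on the log2 scale, 3.19-fold (limma adjusted p over all genes = 0.0319). Earlier wild type means were 0.81 at lactation, -0.69 on day 1 and -0.01 on day 2, so day 3 held the lowest wild type mean and day 4 lay near day 2. The single probe for Cry1 gave adjusted p = 0.0546 over probes. Leaving out day 3 replicate 1 (adjusted p = 0.0979) or replicate 2 (0.207), or day 4 replicate 2 (0.229) or replicate 3 (0.0774), ended the gene call, as did the 6 arrays alone (0.0980) and a replicate block (0.0692). Over 20 alternatives its adjusted p ran from 0.00286 to 0.229 and its difference from 1.45 to 1.95. In E2F3 +/- glands Cry1 stood at -0.26, 0.00 and -0.26 on day 3 and at 0.18, 0.28 and -0.26 on day 4, groups that overlap. The difference between the genotypes in this step was 1.43 ± 0.43 and did not pass over all genes (limma adjusted p = 0.690).

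The promoter of the called gene is shown because cryptochrome genes are themselves targets of the clock through the E-box, the motif CACGTG bound by CLOCK and BMAL1. The RefSeq window for Cry1 lies on the minus strand at chr10:85185005-85185304 (GRCm38.p6) and runs from 250 bases before the gene start to 50 after it, with the E-box in capitals.
Cry1: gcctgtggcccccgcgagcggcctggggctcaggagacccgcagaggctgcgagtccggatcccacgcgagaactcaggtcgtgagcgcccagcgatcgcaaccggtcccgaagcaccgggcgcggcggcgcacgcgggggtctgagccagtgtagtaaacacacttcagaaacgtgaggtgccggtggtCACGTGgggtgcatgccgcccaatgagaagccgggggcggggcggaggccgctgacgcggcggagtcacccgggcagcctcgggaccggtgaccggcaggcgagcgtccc
The window holds 1 CACGTG, which reads the same on both strands. Of 32851 RefSeq promoter windows of that length, 2349 (7.15%) hold this motif. The D-box TTATGTAA, searched on both strands, is in 308 windows (0.938%) and not in this one. A match describes the letters only.

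Other clock genes, of which 3 chosen after their values were seen are given, did not pass. Per1, a partner of cryptochrome in the repressor complex, stood at -1.29, -0.37 and -0.25 on day 3 and at 0.29, -1.53 and 0.42 on day 4 (difference 0.37 ± 0.60). The repressor Bhlhe40 differed by -0.18 ± 0.41 and the nuclear receptor Rora by 0.09 ± 0.37. The groups overlap for all 3 genes. The time of day at which glands were taken is not given in the sources used here.

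Gene lists were compared next. Of 420 genes in any of 37 lists that were tested, 0 were called with all arrays, 80 with array quality weights and 41 without the 3 arrays least like their group. Members are therefore described by their values, by the count with every day 4 array above or below every day 3 array, and by the count at an unadjusted p under 0.05. Calls without the 3 arrays, given below for some lists and genes, are not separate support, because those arrays were picked after the data were seen. Over all genes measured on the 6 arrays, 349 of 2802 lay wholly above (12.5%) and 319 wholly below (11.4%). At an unadjusted p under 0.05, 210 of 2901 genes were higher (7.24%) and 158 lower (5.45%). The median difference over all genes was 0.01.

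**Figure D2:**
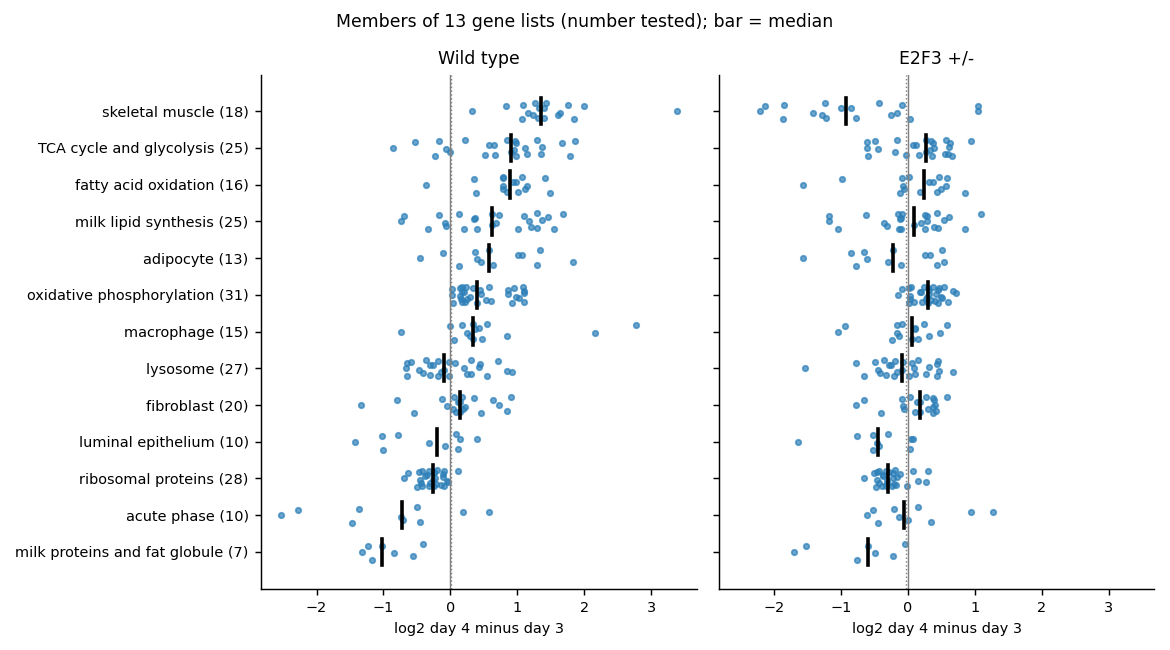
Difference between day 4 and day 3 (horizontal axis, log2) of each tested member of 13 gene lists in wild type (left) and E2F3 +/- glands (right), with the number tested in parentheses, a bar at the list median, a solid line at 0 and a dotted line at the median of all genes. The wild type medians run from 1.36 for skeletal muscle down to -1.02 for milk proteins, and the skeletal muscle median in E2F3 +/- glands is -0.93 with all arrays and 0.87 without day 4 replicate 3.

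Genes of fatty acid oxidation, which shortens fatty acids in mitochondria to acetyl-CoA, were higher on day 4 in nearly all cases. Of 16 members tested, 15 had a positive difference, with a median of 0.89, 9 lay wholly above and 0 wholly below, and 10 were higher and 0 lower at an unadjusted p under 0.05. In the fit without the 3 arrays, 6 of 16 were called higher (37.5%, against 3.48% of all genes): Acadvl, Acads, Echs1, Hadhb, Hadha and Cpt2. The list median without a single array ran from 0.48, without day 4 replicate 2, to 1.23, without day 4 replicate 1.

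Acadvl, the very-long-chain acyl-CoA dehydrogenase of the first step, had the smallest p of the list. Its levels were 0.99, 0.60 and 0.45 on day 3 and 1.45, 3.04 and 2.00 on day 4. All 3 day 4 arrays were above day 3, with replicate 2 far above the others. The difference was 1.48 ± 0.31 (limma adjusted p = 0.0693). Acads, the short-chain dehydrogenase, stood at 0.85, 1.07 and 0.83 on day 3 and at 1.42, 2.14 and 1.54 on day 4 (difference 0.79 ± 0.23). Cpt2, the inner-membrane carnitine palmitoyltransferase that frees acyl-CoA for oxidation, stood at 1.59, 1.73 and 1.38 and then at 2.51, 2.92 and 2.63. Its groups were apart by more than the range of either (1.12 ± 0.34, limma adjusted p = 0.176). Hadhb, the thiolase subunit of the trifunctional protein, differed by 1.41 ± 0.40, and its 2 probes gave 1.44 and 1.39. Ehhadh, a peroxisomal enzyme, was the member with a negative difference (-0.36).

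The list of the TCA cycle and glycolysis had a median of 0.91 over 25 members. Of these, 12 lay wholly above and 0 wholly below, and 13 were higher and 0 lower at an unadjusted p under 0.05. Leaving out the 3 arrays, 10 of 24 were called higher (41.7%, against 3.48% of all genes), among them Pdha1, Cs, Ogdh, Gapdh, Pkm and Aldoa. The median without day 4 replicate 2 was 0.54. Pdha1, the catalytic subunit of pyruvate dehydrogenase that links glycolysis to the cycle, led the list. It stood at 0.34, 0.21 and 0.01 on day 3 and at 0.75, 2.15 and 1.77 on day 4. The groups do not overlap, and the difference was 1.37 ± 0.31 (limma adjusted p = 0.116). Ldhb, a lactate dehydrogenase subunit, stood at -0.67, -0.14 and -0.68 on day 3 and at 0.18, 1.39 and 0.98 on day 4 (1.35 ± 0.40). Dlat, the acetyltransferase of the same pyruvate dehydrogenase complex, stood at 0.59, 0.59 and 0.48 and then at 0.56, 2.91 and 1.62, so that day 4 replicate 1 lay among the day 3 arrays.

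Within the list the steps were unequal. Pkm, pyruvate kinase of muscle and many other tissues, stood at -0.52, -0.35 and -0.72 on day 3 and at 1.59, 0.24 and 1.93 on day 4 (1.78 ± 0.54). The glycolytic and glycogen enzymes with the largest differences, Pgm1 (1.87), Pkm (1.78) and Aldoa (1.67), are abundant in skeletal muscle as well. Members with a negative difference include B4galt1, the galactosyltransferase of lactose synthase (-0.85), and Ugp2, which makes UDP-glucose (-0.53), neither with an unadjusted p under 0.05. These genes were picked after their values were seen.

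Oxidative phosphorylation genes, which encode the respiratory chain and ATP synthase, had a positive difference in 31 of 31 members, with a median of 0.40. Of these, 12 lay wholly above and 0 wholly below. The 10 members at an unadjusted p under 0.05 lay between 0.86 and 1.10, and the other 21 between 0.02 and 0.61. The 10 include Ndufv1 and Uqcrc1 of complexes I and III, the cytochrome Cyc1, Sdha and Sdhb of succinate dehydrogenase, and Atp5a1 and Atp5b of the catalytic head of ATP synthase. Ndufv1 stood at -0.04, -0.01 and -0.22 on day 3 and at 0.63, 1.15 and 0.79 on day 4. The day 3 arrays were tightly grouped below every day 4 array (0.95 ± 0.27, limma adjusted p = 0.160). In the fit without the 3 arrays 8 of 31 members were called higher (25.8%, against 3.48% of all genes). Without day 4 replicate 2 the median was 0.20 with 19 of 31 members positive, and without day 4 replicate 1 it was 0.68 with 31 of 31 positive.

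**Figure D3:**
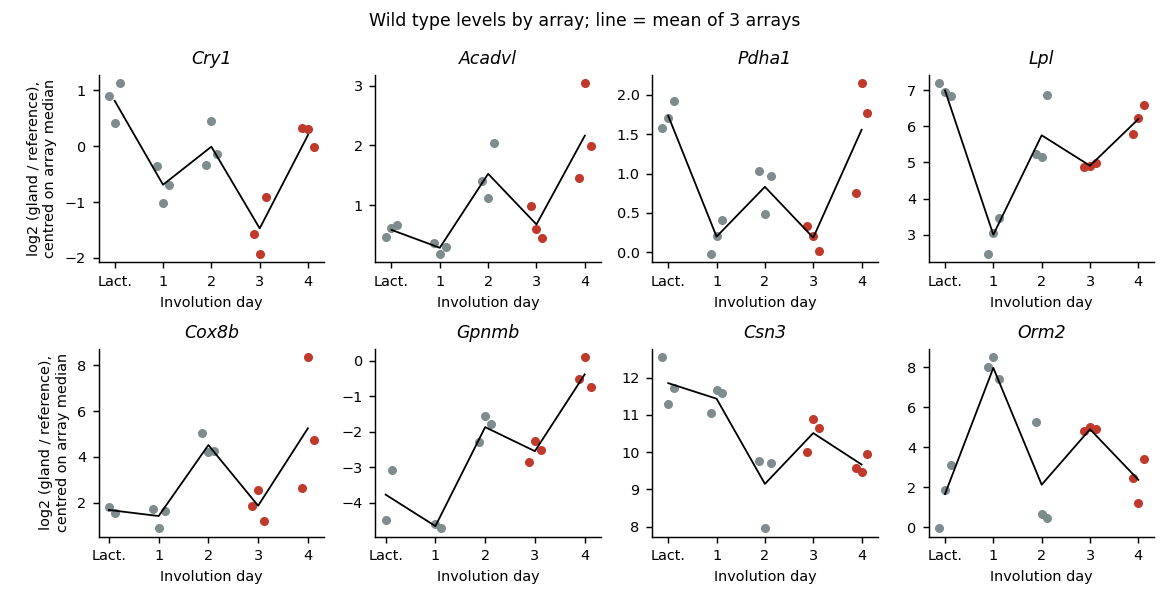
Level (vertical axis, log2 gland over reference, centred on the array median) of 8 genes on the 15 wild type arrays by involution day (horizontal axis), each point an array, the line the group mean and the days compared in red. Cry1, Acadvl, Pdha1, Lpl, Cox8b and Gpnmb have a lower mean on day 3 than on days 2 and 4, and Csn3 and Orm2 a higher one.

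Skeletal muscle genes were higher on day 4 as well, and their levels are given beside the metabolic genes because muscle is rich in the same enzymes. Of 27 members with a probe, 18 were tested. All 18 had a positive difference, with a median of 1.36, 7 lay wholly above, and 4 were higher at an unadjusted p under 0.05. The median was 0.89 without day 4 replicate 3, with 17 of 18 positive. Cox8b, Ak1 and Hrc, 3 of 18, were called higher without the 3 arrays (16.7%, against 3.48% of all genes). The defining markers Acta1 and Ckm have no probe, and none of Myh2, Actn3, Eno3 and Tnnt3 is listed at 0 on the 6 arrays. Over the 16 members measured on all day 3 and day 4 arrays of both genotypes, the median level was 2.33, 3.03 and 1.81 on day 3 and 3.75, 3.35 and 4.94 on day 4. The groups do not overlap. The same muscle median was 4.12, 2.54 and 5.33 on day 2. In E2F3 +/- glands it was 3.76, 4.40 and 4.69 on day 3 and 4.71, 5.84 and -0.16 on day 4, with replicate 3 far below the rest.

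Cox8b, a cytochrome oxidase subunit of muscle and brown fat, had the largest wild type difference of all genes tested. It stood at 1.83, 2.53 and 1.21 on day 3 and at 2.64, 8.35 and 4.75 on day 4. Day 4 replicate 2 set much of the size: the difference was 3.39 ± 0.85 (limma adjusted p = 0.160) and 1.84 without that array. The same array was the highest of day 4 for Cox8b (8.35) but the lowest of day 4 for the muscle list median (3.35). Des, the muscle intermediate filament desmin, stood at 2.38, 2.61 and 1.89 and then at 4.16, 3.07 and 4.55 (1.64 ± 0.76). Myh2 differed by 1.75 ± 0.84 and Eno3, muscle enolase, by 1.85 ± 1.31.

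The order of the day 4 arrays was not the same for the muscle and the fatty acid oxidation lists. The median level of the 16 fatty acid oxidation genes was 1.31, 1.31 and 1.05 on day 3 and 1.50, 3.05 and 2.04 on day 4. Day 4 replicate 2 was highest for fatty acid oxidation (3.05) and lowest for muscle (3.35). For 24 TCA cycle and glycolysis genes the medians were 0.38, 0.18 and 0.06 on day 3 and 0.65, 1.32 and 1.27 on day 4. For oxidative phosphorylation they were 0.54, 0.77 and 0.39 and then 0.59, 1.50 and 1.13, so day 4 replicate 1 lay within the range of day 3. The part of muscle RNA in the metabolic differences was not tested.

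**Figure D4:**
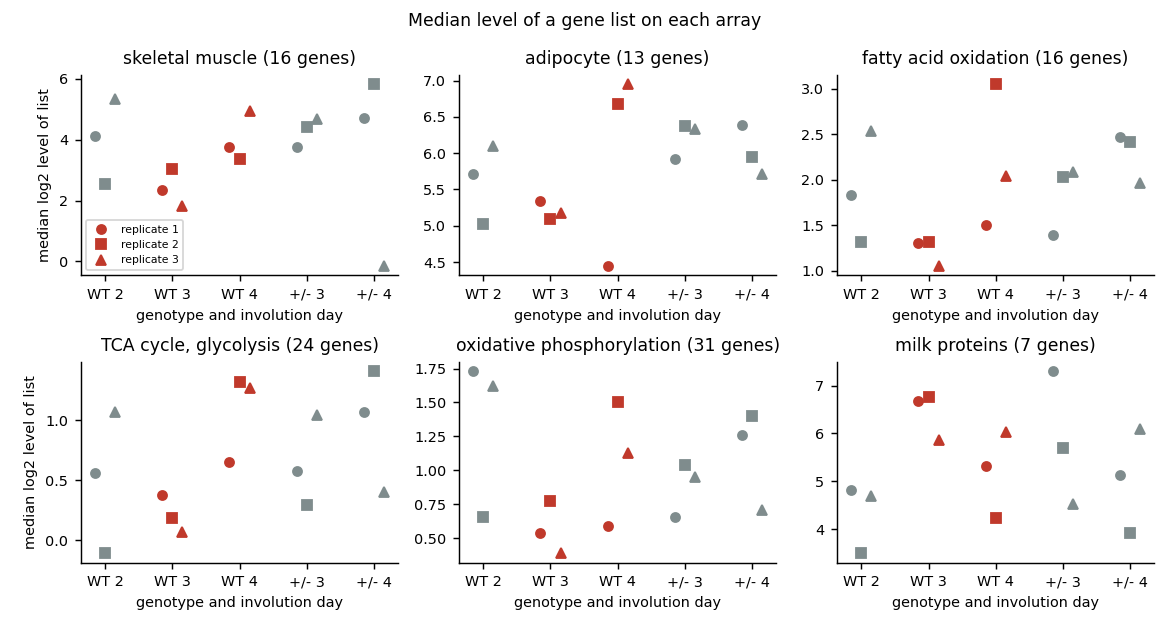
Median level (vertical axis, log2) of 6 gene lists on each array of wild type days 2, 3 and 4 and E2F3 +/- days 3 and 4 (horizontal axis), with a symbol per replicate number and wild type days 3 and 4 in red. Wild type day 4 replicate 2 is highest for fatty acid oxidation and lowest of its group for skeletal muscle, and E2F3 +/- day 4 replicate 3 stands at -0.16 for skeletal muscle.

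Adipocyte genes split by array. The median level of 13 members was 5.34, 5.09 and 5.17 on day 3 and 4.44, 6.68 and 6.96 on day 4, with replicate 1 below every day 3 array and the other two above. The list median difference was 0.58, 3 of 13 lay wholly above, and 2 were higher at an unadjusted p under 0.05. The median difference was 1.32 without day 4 replicate 1, 0.27 without day 4 replicate 2 and 0.33 without day 3 replicate 3. It was positive in 11 of 13 members with all arrays and in 8 of 13 without day 4 replicate 3. Adipoq, the adipocyte hormone adiponectin, stood at 7.47, 6.74 and 6.07 on day 3 and at 5.78, 6.99 and 8.90 on day 4 (0.46 ± 0.63), and the sign turned without day 4 replicate 3 (-0.37). Plin1 did not follow the list median: it stood at 4.43, 5.15 and 4.30 on day 3 and at 4.01, 2.28 and 5.86 on day 4. Its lowest value was on day 4 replicate 2. Pck1, which feeds glycerol synthesis in fat cells, stood at 6.24, 4.81 and 5.17 and then at 6.37, 7.88 and 7.47 (1.83 ± 0.73, limma adjusted p = 0.307).

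Genes of fat synthesis and uptake had a median difference of 0.62 over 25 members. Of these, 11 lay wholly above, 2 wholly below, and 9 were higher and 0 lower at an unadjusted p under 0.05. Without the 3 arrays, 6 of 23 were called higher (26.1%, against 3.48% of all genes): Fasn, Slc27a1, Slc25a1, Lpl, Gpam and Acaca. Lpl, the lipase that releases fatty acids from circulating triglyceride, is also a member of the adipocyte list. It stood at 4.86, 4.90 and 4.97 on day 3 and at 5.79, 6.22 and 6.58 on day 4. The 3 day 3 arrays lay within a narrow range below all day 4 arrays (1.29 ± 0.36, limma adjusted p = 0.160), and the 2 Lpl probes gave 1.31 and 1.27. Gpam, which starts triglyceride assembly, stood at 1.83, 1.90 and 1.74 and then at 2.95, 3.39 and 3.52 (1.46 ± 0.45). Slc25a1, the mitochondrial citrate carrier, stood at 2.19, 3.08 and 2.00 and then at 3.44, 3.98 and 3.97 (1.38 ± 0.43). Acaca, the first committed enzyme of fatty acid synthesis, differed by 1.20 ± 0.43, with 1.53 and 0.87 from its 2 probes. Fabp3, a fatty acid carrier abundant in lactating epithelial cells, differed by -0.07 ± 0.70, and its sign turned under 3 alternatives. Among cholesterol synthesis genes, Cyp51 stood at -2.22, -2.25 and -2.88 on day 3 and at -0.77, -1.49 and -1.26 on day 4 (1.28 ± 0.33), while the median of 8 members was 0.10.

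Milk protein genes had lower levels on day 4, and none passed the test. All 7 tested members had a negative difference, from -1.32 to -0.41 with a median of -1.02, 1 lay wholly below, and 0 had an unadjusted p under 0.05. The median was -0.59 without day 4 replicate 2, with 1 of 7 positive, and -1.60 without day 4 replicate 3. Csn3, kappa casein, stood at 10.02, 10.88 and 10.64 on day 3 and at 9.59, 9.48 and 9.94 on day 4. The groups are just apart, and the difference was -0.84 ± 0.49 (limma adjusted p = 0.490). Lalba, the lactose synthase cofactor, stood at 9.92, 10.40 and 10.27 and then at 9.02, 9.61 and 10.29 (-0.56 ± 0.65), with day 4 replicate 3 among the day 3 arrays. Xdh, which lines the milk fat globule, stood at 4.16, 3.49 and 4.2 and then at 3.84, 0.87 and 3.46 (-1.23 ± 0.61), and at -0.30 without day 4 replicate 2. Cish, a feedback target of prolactin and Stat5, stood at 3.72, 3.39 and 2.72 on day 3 and at 1.78, 2.06 and 2.11 on day 4 (-1.29 ± 0.45, limma adjusted p = 0.230). Cish was called lower without the 3 arrays. It had the smallest p of the prolactin and Stat5 list, whose median was 0.06 over 6 members, 4 of them with a positive difference.

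Acute phase genes, which the gland makes early in involution, had a median difference of -0.72 over 10 members. Of these, 4 lay wholly below and 0 wholly above, and 1 was lower at an unadjusted p under 0.05. The median was -0.43 without day 4 replicate 2. Orm2, an acute phase carrier protein, stood at 4.81, 5.00 and 4.91 on day 3 and at 2.49, 1.22 and 3.42 on day 4. The narrow day 3 group lay above all day 4 arrays, and the difference of -2.53 ± 1.19 was the lowest of all genes tested (limma adjusted p = 0.389). The serum amyloid genes Saa3 and Saa2 differed by -2.27 ± 1.30 and -1.47 ± 0.99. Socs3, the feedback inhibitor of Stat3, stood at -0.14, 0.02 and -0.04 on day 3 and at -0.65, -0.85 and -1.45 on day 4 (-0.93 ± 0.29, limma adjusted p = 0.184), and was called lower without the 3 arrays. The survival factor binder Igfbp5 differed by -0.32 ± 0.62.

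Ribosomal protein genes differed little but mostly downward. Of 28 members, 27 had a negative difference, with a median of -0.26, 9 lay wholly below and 0 wholly above, and 3 were lower at an unadjusted p under 0.05. None was called, either of the 28 tested with all arrays or of the 27 tested without the 3 arrays. The median was -0.17 without day 4 replicate 1, -0.41 without day 4 replicate 2 and -0.16 with quantile scaling, where 8 of 28 had a positive difference. Rpl6 stood at -0.03, 0.02 and 0.04 on day 3 and at -0.89, -0.22 and -0.26 on day 4 (-0.46 ± 0.20, limma adjusted p = 0.323). The 5 probes named Rpl35a gave -0.63 to -0.74. In E2F3 +/- glands the list median was -0.29.

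Most macrophage genes differed little. Of 15 members, 13 had a positive difference, with a median of 0.34, and 2 lay wholly above. The median was 0.14 without day 4 replicate 2, with 9 of 15 positive, 0.55 without day 3 replicate 2, 0.58 without day 4 replicate 1 and 0.12 with quantile scaling. Gpnmb, a glycoprotein of lipid-laden macrophages, stood at -2.87, -2.27 and -2.50 on day 3 and at -0.53, 0.10 and -0.73 on day 4. Its day 4 levels were above every other wild type array plotted, and the difference was 2.16 ± 0.57 (limma adjusted p = 0.160), called higher without the 3 arrays. Retnla, a mark of alternatively activated macrophages, stood at 4.06, 6.08 and 1.86 and then at 5.95, 7.57 and 6.80 (2.77 ± 1.24), with overlap. Cd68, a lysosomal glycoprotein, differed by 0.25 and Lyz2, lysozyme, by 0.34, and both changed sign under some alternatives. Among lysosomal genes the median of 27 members was -0.10, with 5 wholly above and 3 wholly below. Lamp1, a lysosomal membrane protein, stood at 1.37, 1.72 and 1.68 and then at 2.40, 3.29 and 1.83 (0.91 ± 0.27).

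Fibroblast, collagen and matrix glycoprotein, and luminal lists had medians within 0.20 of 0. The fibroblast list had a median of 0.15 over 20 members, with Dcn at 0.15 ± 0.30, and the collagen and matrix glycoprotein list 0.12 over 26. Within the latter Col16a1, a fibril-associated collagen, stood at -1.29, -1.22 and -1.67 on day 3 and at 0.09, -0.30 and -0.67 on day 4 (1.10 ± 0.32). The list of matrix proteases and inhibitors had a median of 0.32 over 8 members, 6 of them with a positive difference. Of these 8, 4 lay wholly above and 1 wholly below, and 1 was higher and 0 lower at an unadjusted p under 0.05. That member, the protease Mmp2, differed by 0.69 ± 0.33. The luminal list had a median of -0.20 over 10 members and ran from -1.43 to 0.40, with 4 positive and 6 negative differences. Krt8, the highest member, differed by 0.40 ± 0.37 and Krt18 by -0.08 ± 0.38. Elf3, with the smallest p of the list, differed by -0.79 ± 0.34 with overlapping groups (limma adjusted p = 0.353). The list of myoepithelium, the contractile cells around the alveoli, had a median of -0.44 over 6 members, 5 of them with a negative difference and 0 with an unadjusted p under 0.05. The medians of the proteasome (-0.07), interferon (-0.07), unfolded protein (0.17) and apoptosis (-0.09) lists were also close to 0. For E2f1, measured on 2 of 3 day 4 arrays, the difference was -0.54 ± 0.44, and no probe is named E2f3.

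Outside the lists, single genes with separated groups were chosen after their values were seen. Ndrg3 stood at -1.37, -1.07 and -1.69 on day 3 and at -0.45, 0.33 and -0.07 on day 4 (1.32 ± 0.27, limma adjusted p = 0.0693). Its relative Ndrg1, a stress-responsive gene, stood at 1.59, 0.60 and 1.22 and then at -0.50, -1.80 and -0.81 (-2.17 ± 0.78, limma adjusted p = 0.234). Fkbp14, a chaperone of collagen folding, stood at 1.45, 0.43 and 0.89 and then at -0.70, -1.47 and -1.64 (-2.19 ± 0.59). Sox4, a transcription factor of progenitor cells, stood at -1.06, -1.13 and -1.21 and then at -2.92, -2.08 and -3.69 (-1.76 ± 0.61). The probe for the embryonic globin Hbb-y stood at 8.32, 8.59 and 8.03 and then at 4.13, 7.39 and 5.85 (-2.52 ± 0.77), and differed by -2.55 in E2F3 +/- glands. Probe sequences were not used here, so cross-hybridisation of this probe with the adult globins, and of the Lyz2 and Saa2 probes with their close relatives, was not checked. The creatine kinase Ckb stood at 4.02, 4.09 and 3.37 and then at 5.95, 5.49 and 6.45 (2.14 ± 0.86).

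Day 2 levels are set beside those of the step, always with day 2 replicate 3 included. That array had the highest day 2 list median for fatty acid oxidation (2.54, against 1.84 and 1.32) and skeletal muscle (5.33, against 4.12 and 2.54). For fatty acid oxidation the list median was -0.72 for day 3 minus day 2 and 0.36 for day 4 minus day 2. For oxidative phosphorylation these medians were -0.76 and -0.12, for skeletal muscle -1.14 and 0.20, for acute phase genes 1.08 and 0.24, and for milk proteins 1.68 and 1.12. Acadvl had a mean of 1.52 on day 2, Fkbp14 of -1.70, Ndrg1 of -2.20 and Orm2 of 2.13. These medians share the day 3 or the day 2 arrays, so they are not separate evidence of a return.

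The same step in E2F3 +/- glands also gave 0 of 5010 probes called (0%), with a smallest adjusted p of 0.245. At an unadjusted p under 0.05, 66 probes were higher (1.32%) and 263 lower (5.25%). The test of the difference between the genotypes called 0 of 5010 probes (smallest adjusted p = 0.159), with 314 at an unadjusted p under 0.05 (6.27%), so no gene or list is shown to differ between them in this step. List medians in E2F3 +/- glands were 0.25 for fatty acid oxidation, 0.28 for the TCA cycle and glycolysis, 0.31 for oxidative phosphorylation, -0.60 for milk proteins and -0.93 for skeletal muscle. The muscle median rested on day 4 replicate 3: without it the value was 0.87, with 17 of 18 members positive. It was -1.66 without day 4 replicate 1, -2.27 without day 4 replicate 2 and -0.60 without day 3 replicate 3. These values were computed after seeing the data. Leaving out day 4 replicate 3 gave 0.10 for fatty acid oxidation, 0.55 for the TCA cycle and glycolysis and -1.11 for milk proteins. Leaving out day 4 replicate 2 gave -0.025 for the TCA cycle and glycolysis, 0.19 for oxidative phosphorylation and -0.15 for milk proteins. Leaving out day 3 replicate 1 gave 0.13 for fatty acid oxidation, 0.12 for the TCA cycle and glycolysis and -0.26 for milk proteins. Leaving out day 3 replicate 2 or 3 gave -0.34 or -1.12 for milk proteins. Of the 3 smallest p in that test, Bcat2, which starts the breakdown of branched-chain amino acids, stood at 1.03, 1.83 and 1.10 on wild type day 3 and at 2.38, 2.72 and 2.93 on day 4 (1.36 ± 0.35). In E2F3 +/- glands Bcat2 stood at 1.71, 1.81 and 2.71 on day 3 and at 1.82, 1.89 and 0.07 on day 4. The groups overlap, and the difference of -0.82 was -0.22 without day 4 replicate 3. With all arrays the genotype difference was 2.17 ± 0.50 (limma adjusted p = 0.473 over genes). Pcyt2, of phosphatidylethanolamine synthesis, differed by 0.66 in wild type and -0.57 in E2F3 +/- glands. Chrna6, a nicotinic receptor subunit measured on 2 of 3 wild type day 4 arrays, differed by 0.25 ± 0.25 and -1.11 ± 0.23. Without the 3 arrays 28 probes were called between the genotypes and 135 in the E2F3 +/- step.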

How the data were processed

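The authors deposited linear ratios, 1 per probe and array. Per the labels, gland RNA carries Cy5 and reference RNA Cy3, after CsCl ultracentrifugation and amplification. How arrays were scanned, corrected, normalized or filtered is not given in the sources used here. Values of 0 (13146 values) and 0.01 (1223), together 7.64% of the table and 2.44% to 11.1% of the 6 compared arrays, were taken as missing. Other deposited ratios were log2 transformed and centred on the median of each array. A probe needed values on at least 2 of 3 arrays in every group, which left 5010 of 6267. The platform table names 3997 probes with 1 symbol, 115 with several and 2155 with none, and 3991 were matched by gene ID to the GRCm38.p6 gene table. Probes of a gene were averaged, giving 2901 genes, 213 of them with several probes. For Adipoq, Cel, Ces1d, Folr1, Igfbp5, Olfr936, Retnla, Serping1, Slc2a4, Slc36a2 and Thrsp at least 90% of ratios from 1 to 100 are whole multiples of 0.1 (tolerance 1e-06 on the ratio). The cause of this pattern was not tested.

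Limma 3.58.1 (R 4.3.3) fitted all 30 arrays with 1 mean per group, 20 residual degrees of freedom and Benjamini-Hochberg adjustment at 0.05 over all probes or all genes. The E2F3 +/- step and the difference between the steps came from the same fit, which was tested on simulated data. Python 3.11.15, pandas 2.3.3, numpy 2.4.6 and matplotlib 3.10.9 made tables and figures. The labels give every array its own mouse, and p-values therefore measure the spread between mice, of which 3 a group allow only coarse precision.

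The members and lists were chosen with earlier results of these data known. Named genes were to be the 12 largest called changes each way, the list members with the smallest p, the 3 or 6 smallest p between genotypes, E2f probes and 17 markers. Because no list member was called, list members ranked 2 to 4 by p, the largest separated differences at an unadjusted p under 0.05, the 12 smallest p and clock genes were added after values were seen. Alternatives covered centring, scaling, missing codes, a pseudocount, filters, arrays in the fit, weights, prior, block and each array left out.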

Additional observations from a re-analysis of the deposited data

How the results depend on the processing

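The count of called probes in the wild type step (0) was 17 with quantile scaling, 1 with probes measured on all 30 arrays, 2 with the filter on the compared groups alone, 2 with no filter, 8 with the 15 wild type arrays, 760 with array quality weights, 1 with a trended robust prior and 322 without the 3 arrays least like their group. Leaving out a compared array gave 0 to 13, with 13 without day 4 replicate 1. The count of called genes (1) was 3 with quantile scaling, 0 with the 6 arrays, 5 with the wild type arrays, 340 with weights, 134 without the 3 arrays and 0 to 13 without a single array. Called list members (0) numbered 1 with the wild type arrays, 80 with weights, 41 without the 3 arrays and 0 to 6 without a single array. Probes at an unadjusted p under 0.05 (695) numbered 1105 with the 6 arrays, 1519 with weights, 1071 without the 3 arrays and 474 to 728 without a single array. The E2F3 +/- step (0) gave 285 with weights, 135 without the 3 arrays and 0 to 271 without a single array, with 271 without E2F3 +/- day 4 replicate 3. The test between the genotypes (0) gave 123 with weights, 28 without the 3 arrays and 0 to 15 without a single array. The cause of these changes was not tested.

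With a replicate block 0 probes and 0 genes were called. The labels give separate mice, and deviations of same-numbered day 3 and day 4 arrays correlated at 0.0964, 0.217 and -0.0915, so the numbers were not taken to pair the arrays.

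Of 106 named genes 11 changed sign under some alternative, none of them called. With quantile scaling these were Dcn (-0.041), E2f1 (0.053) and Rora (-0.054). With weights they were Cd68 (-0.032), Dcn (-0.085), Fabp3 (0.27) and Krt18 (0.0057). Leaving out a single array gave ranges across 0 for Adipoq (-0.37 to 1.18), Bhlhe40 (-0.35 to 0.050), Cd14 (-1.46 to 0.14), Dcn (-0.21 to 0.35), Fabp3 (-0.42 to 0.58), Igfbp5 (-0.65 to 0.18), Krt18 (-0.27 to 0.17), Lyz2 (-0.31 to 1.08) and Rora (-0.12 to 0.41). The median of milk proteins was -0.26 with weights, and the wild type medians of the 10 lists tried kept their sign under every alternative. Those 10 of the 37 lists were chosen with earlier results of these data known. A changed prior, a replicate block and dropping the 3 arrays leave the compared group means as they were. Those alternatives could therefore hardly turn a sign. With 3 mice per group, the median half-width of the 95% intervals was 0.67 (log2). Differences smaller than the half-width of a gene's own interval were not detectable at this precision.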

Other observations

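Beyond the lists, 2 genes known from adipose tissue were among the 12 largest positive differences with separated groups in wild type glands. Ces1d, a carboxylesterase, stood at 5.47, 5.70 and 5.13 on day 3 and at 6.05, 8.39 and 8.60 on day 4 (2.25 ± 0.68, limma adjusted p = 0.174). Slc36a2, an amino acid transporter, stood at 3.17, 3.86 and 1.30 and then at 4.21, 5.79 and 5.23 (2.30 ± 0.71). Tmem120b stood at 0.94, 2.40 and 1.79 and then at 2.92, 3.49 and 3.44 (1.57 ± 0.40). Aldh2, the mitochondrial aldehyde dehydrogenase, stood at 1.01, 1.13 and 0.79 and then at 1.96, 1.70 and 2.11 (0.94 ± 0.22, limma adjusted p = 0.116), and Coq5, of ubiquinone synthesis, at -0.52, -0.72 and -0.84 and then at 0.01, 1.51 and 0.43 (1.34 ± 0.31).

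Among negative differences, the splicing protein gene Snrpe stood at -0.63, -0.43 and -0.70 and then at -2.05, -1.23 and -1.44 (-0.99 ± 0.25, limma adjusted p = 0.160). Xist, the RNA of the inactive X chromosome, stood at 1.18, 0.63 and 0.94 and then at -0.47, -1.77 and -1.66 (-2.21 ± 0.81, limma adjusted p = 0.243). Its means were -0.57 at lactation, 1.18 on day 1 and -1.49 on day 2. The replication gene Chaf1b, measured on 2 of 3 day 4 arrays, and the mitosis gene Stmn1 differed by -0.92 ± 0.34 and -0.78 ± 0.27. Each had the smallest p of its list. The median of the E2F target and replication list was -0.08 over 9 members, 4 of them with a positive difference. For the mitosis list it was -0.24 over 5 members, all with a negative difference.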
